A study of Homo sapiens with 6 samples.

Results

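Antisense long non-coding RNAs were examined in HEK293, a human embryonic kidney cell line, before and after heat shock. They were taken as the genes whose name ends in -AS or in -AS with a number. The members were chosen by this name and by a pooled level of at least 1 FPKM (fragments scaled to the length of the transcript and to the mapped fragments of the library) in control or heat shocked cells, as the authors' table of merged loci lists it. Of 425 names of this form in that table, 200 reached this level, 136 of them in both groups, 19 in control cells alone and 45 in heat shocked cells alone. At the edge of the threshold, PGM5-AS1 had pooled values of 1.01 in control and 0.757 after heat shock and ZBED3-AS1 had 0.338 and 1.02, while BDNF-AS, left out, had 0.556 and 0.979, and VPS13A-AS1, also left out, had 0.121 and 0.975. Since the choice read levels of the same cultures, the levels and differences below are descriptions of these 200 genes in these 6 libraries.

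The study compared 3 control cultures of HEK293 cells, kept at 37°C, with 3 cultures held for 30 minutes at 45°C in a water bath, with 1 library from each. Both groups were the same line, for which the labels name no transgene or further agent, and the RNA was total RNA depleted of ribosomal RNA. The labels do not say whether the cultures were grown or treated on separate days, so the p-values measure the spread between these 6 samples, which may be technical. The 8 genes taken as markers of HEK293 cells all had a mean of at least 1 FPKM. Among markers of other cell types, LYZ and COL1A1 also did, with at most 4.15 and 4.16 FPKM in any library, while PTPRC, CD3E, ALB, PECAM1 and HBB did not. In bulk RNA, fewer cells that express a gene and less of its RNA in each cell cannot be told apart.

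An antisense RNA is transcribed from the strand opposite to a protein coding gene, from which it takes its name. Some overlap the exons of that sense gene and can pair with its mRNA, some lie within its introns, and many start close to its promoter and run the other way, a layout called head to head or divergent. Single antisense RNAs have been described as guides of chromatin enzymes, as sponges of microRNAs or as hosts of small nucleolar RNAs, and for most no role is known. Heat shock raises transcription of chaperone genes through heat shock factor while transcription of many other genes falls, and readthrough beyond gene ends and antisense transcription have both been described in stressed cells.

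In the hg19 annotation that the deposited assemblies carry, a sense gene was found for 193 of the 200. The 7 without one were C20orf166-AS1 and 6 RNAs named after a whole HOX cluster. The exons overlapped those of the sense gene in 102 pairs, the bounds overlapped with no exon base in common in 41, and the genes lay apart in 49. HNRNPU-AS1 was annotated on the same strand as HNRNPU, the gene of a nuclear RNA-binding protein, so it is antisense by name only. In 94 pairs the starts lay head to head within 1000 bases. Of the 200 names, 16 now carry a symbol that ends in -DT, for divergent transcript, in RefSeq (CTBP1-AS1 and CEBPA-AS1 are examples), and all 16 were among these 94. The longest annotated transcript of a gene had a median of 3 exons and 1909 bases, with 382 to 8492 bases over the whole set, and 24 genes had 1 exon.

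The stretch of genome between the starts of a head to head pair serves both directions, and 5 such intervals are shown because they belong to genes described below. Each holds no annotated exon and is read from GRCh37, the same assembly as hg19, 5′ to 3′ along the strand of the antisense RNA, from the base after the sense start to the base before the antisense start, with CG dinucleotides in capitals. They lie at chr4:39529219-39529458 on the plus strand (UGDH-AS1), chr3:9439175-9439402 on the minus strand (SETD5-AS1), chr14:89883455-89883697 on the plus strand (FOXN3-AS1), chr7:27224836-27225026 on the plus strand (HOXA11-AS) and chr10:31608025-31608100 on the minus strand (ZEB1-AS1).
UGDH-AS1: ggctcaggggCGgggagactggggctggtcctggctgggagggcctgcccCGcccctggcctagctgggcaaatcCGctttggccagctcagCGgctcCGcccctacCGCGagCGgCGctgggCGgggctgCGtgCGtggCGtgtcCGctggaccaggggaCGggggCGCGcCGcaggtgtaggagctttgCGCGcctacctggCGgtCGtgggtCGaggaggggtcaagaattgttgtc
SETD5-AS1: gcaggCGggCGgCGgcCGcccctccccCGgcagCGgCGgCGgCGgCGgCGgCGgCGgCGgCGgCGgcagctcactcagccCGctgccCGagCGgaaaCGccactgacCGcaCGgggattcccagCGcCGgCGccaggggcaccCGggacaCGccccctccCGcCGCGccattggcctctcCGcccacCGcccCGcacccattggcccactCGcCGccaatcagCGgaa
FOXN3-AS1: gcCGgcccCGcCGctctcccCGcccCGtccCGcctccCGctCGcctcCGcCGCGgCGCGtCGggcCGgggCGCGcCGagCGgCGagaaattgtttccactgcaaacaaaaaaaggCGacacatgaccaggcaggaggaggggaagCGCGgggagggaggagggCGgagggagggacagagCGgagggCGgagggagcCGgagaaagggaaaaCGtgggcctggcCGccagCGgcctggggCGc
HOXA11-AS: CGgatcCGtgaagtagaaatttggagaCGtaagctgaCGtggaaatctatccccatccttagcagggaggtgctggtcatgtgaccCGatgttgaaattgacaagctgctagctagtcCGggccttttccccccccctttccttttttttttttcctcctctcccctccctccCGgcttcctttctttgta
ZEB1-AS1: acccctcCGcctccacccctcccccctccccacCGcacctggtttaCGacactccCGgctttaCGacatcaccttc
The intervals of UGDH-AS1, SETD5-AS1 and FOXN3-AS1 hold 23, 36 and 31 CG dinucleotides in 240, 228 and 243 bases. That of HOXA11-AS, with 191 bases, holds 7 and that of ZEB1-AS1, with 76 bases, holds 5. The interval of SETD5-AS1 carries a run of CG-holding triplets near the sense start, and the interval of HOXA11-AS, at 50.8% G and C, is the least GC-rich of the 5. None of the 5 holds TATAAA or the 8-letter heat shock element forms GAANNTTC and TTCNNGAA on either strand.

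The same letters were counted in the window from 250 bases before to 50 bases after the start of every gene (RefSeq promoters, both strands, all 200 matched). GAANNTTC was in 18 windows of antisense genes, or 9.0%, against 6.26% of 24150 windows of all genes. TTCNNGAA was in 3.5% against 7.06%, and TATAAA in 5.0% against 10.7%. The median number of CG dinucleotides in a window was 28.5 for the 94 head to head genes and 13 for the other 106, against 17 over all genes. These are counts of letters and not of bound sites.

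The libraries differed in a way that reaches the antisense genes. A common factor, which is the median-of-ratios size factor of the 983 genes that exceeded 10 FPKM in every library, was 0.938, 0.434 and 0.957 in control 1, 2 and 3 and 2.13, 2.32 and 0.487 in heat shock 1, 2 and 3, so heat shock 3 stood with control 2 rather than with heat shock 1 and 2. Assembled transcripts with no strand that overlapped antisense genes numbered 333, 440 and 165 in the controls and 86, 154 and 393 in the heat shock libraries. The values hold no read counts, and the ratio of coverage to FPKM put the depth of the libraries at 1 to 2.03 times that of the shallowest, control 3. The part of these differences in the results below was not tested, and values divided by the common factor are given beside them. Of 12 heat shock genes 11 were tested, and all 11 were higher after heat shock by a median of 1.20 on the log2(FPKM + 1) scale, or 0.35 per common factor, with 0 called by limma (lowest adjusted p = 0.710). DNAJB1, an HSP40 co-chaperone, had 7.32, 4.84 and 9.18 FPKM in the controls and 121, 116 and 34.0 in heat shock 1, 2 and 3. Heat shock 3 thus lay above every control for DNAJB1, as it did for HSPA1A and HSPA1B. For HSPA8, HSPH1, HSPB1, HSPD1, HSPE1, HSP90AA1, DNAJA1 and BAG3 it lay within the range of the controls.

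Antisense genes were expressed at low levels. The median of their mean FPKM over the 6 libraries was 1.15, 19 had a mean of at least 5 and 10 had a mean of at least 10. By library, 143 to 169 of the 200 were listed above 0. In all, 110 were above 0 in all 6 libraries, 74 in 1 to 5 libraries, and 16 were at 0 in every library although their pooled value was at least 1 in a group. All 16 had exons that overlapped those of their sense gene, as 102 of the 200 had. PCNA-AS1 was the extreme case. Its single exon of 384 bases (chr20:5100232-5100615, plus strand) lies wholly within exons of PCNA, which encodes the sliding clamp of DNA replication, and the authors' pooled values for it were 46.5 in control and 164 after heat shock. In every single library it was listed at 0, while PCNA had 124, 134 and 200 FPKM in the controls and 268, 292 and 54.5 in the heat shock libraries. For ENO1-AS1, opposite the glycolytic enzyme enolase, the pooled values were 2.80 and 2.52 and the 6 libraries also had 0. TTN-AS1, opposite the exons of the muscle protein titin, shares 70.4% of its exon bases with TTN and was likewise listed at 0 throughout. The protocol does not state whether the libraries kept the strand, and without it a read in a shared exon cannot be assigned to one of the strands.

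**Figure D1:**
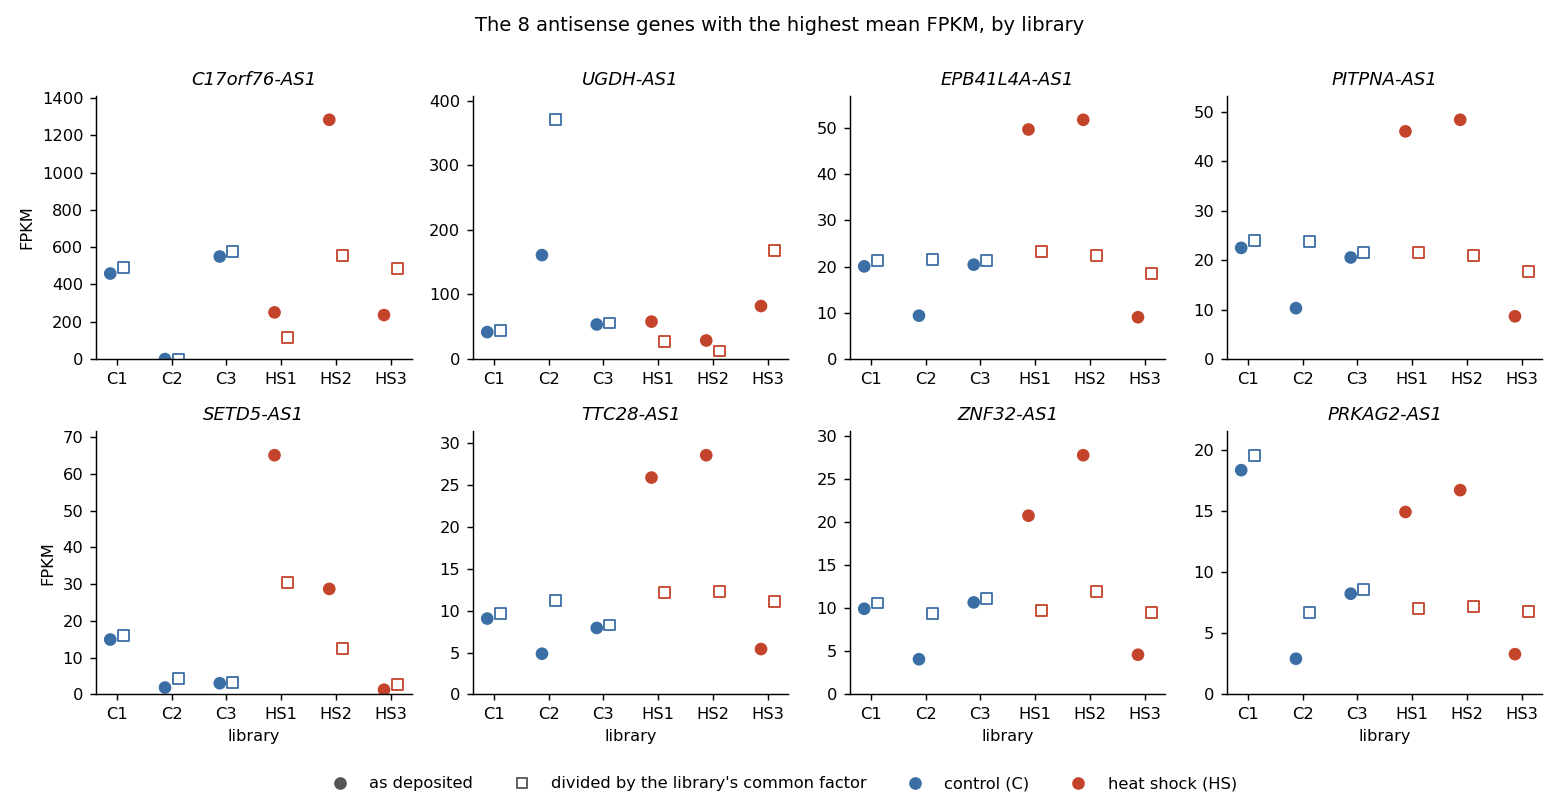
FPKM of the 8 antisense genes with the highest mean, in 3 control (C, blue) and 3 heat shock (HS, red) libraries. Filled circles are values as deposited and open squares are the same values divided by the common factor of the library. EPB41L4A-AS1, PITPNA-AS1, ZNF32-AS1 and TTC28-AS1 lie in a narrow band once divided, and C17orf76-AS1, UGDH-AS1 and SETD5-AS1 do not.

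C17orf76-AS1, now named SNHG29, was the most abundant. It hosts small nucleolar RNAs in its introns and lies at chr17:16342301-16373962 (hg19, plus strand). Its level was 459, 0 and 550 FPKM in control 1, 2 and 3 and 250, 1283 and 236 FPKM in heat shock 1, 2 and 3. In control 2, where it was listed at 0, the assembly held transcripts of 248 FPKM in sum that joined this gene with small nucleolar RNA genes (SNORD49B or SNORD65), and in heat shock 1 such joined transcripts had 892 FPKM. With these counted, the 6 values were 459, 248, 550, 1142, 1283 and 236 FPKM. The highest was 5.44 times the lowest, and 1.19 times per common factor. The log2 difference was 2.75 ± 1.93 (SE, n = 3 against 3) as deposited and 0.82 with joined transcripts counted. C17orf76 itself, now LRRC75A, was listed at 0 in all 6 libraries.

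EPB41L4A-AS1 (chr5:111496223-111498198, plus strand), also a host of a small nucleolar RNA, had 20.1, 9.39 and 20.4 FPKM in the controls and 49.7, 51.8 and 9.05 in heat shock 1, 2 and 3. Per common factor the values were 21.4, 21.6, 21.4, 23.3, 22.4 and 18.6, a highest value 1.25 times the lowest. Its sense gene EPB41L4A, the gene of a cytoskeletal protein whose bounds it does not overlap, had 0.459 to 1.49 FPKM. PITPNA-AS1 (chr17:1420213-1421390, plus strand) behaved alike, with 22.5, 10.3 and 20.5 FPKM in the controls and 46.0, 48.3 and 8.63 in the heat shock libraries. PITPNA, a phosphatidylinositol transfer protein, lay below its antisense RNA in all 6 libraries, at 2.59 to 9.25 FPKM. ZNF32-AS1, opposite a zinc finger gene, had 9.95, 4.09 and 10.7 FPKM in the controls and 20.8, 27.8 and 4.62 in heat shock 1, 2 and 3. TTC28-AS1 had 9.07, 4.87 and 7.95 in the controls and 25.9, 28.6 and 5.43 in the heat shock libraries. In each of these genes heat shock 1 and 2 were above all controls and heat shock 3 was not. As deposited, the log2 differences of EPB41L4A-AS1, PITPNA-AS1, ZNF32-AS1 and TTC28-AS1 were 0.84, 0.66, 0.81 and 1.09, with SEs of 0.76 to 0.88, and per common factor they were -0.008, -0.19, -0.003 and 0.27. For TTC28-AS1, most of the level after heat shock came from assembled transcripts, since the annotated ones alone had 9.07, 4.18 and 7.95 FPKM in the controls and 8.92, 1.46 and 0 in heat shock 1, 2 and 3.

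UGDH-AS1 went against this order. It lies head to head with UGDH, the enzyme that makes UDP-glucuronate, and runs through chr4:39529459-39596327 on the plus strand. Its level was 41.7, 161 and 53.5 FPKM in the controls and 58.0, 28.7 and 82.1 in the heat shock libraries, so the libraries with the lowest common factor, control 2 and heat shock 3, had the highest values. In control 2 the whole value belonged to an assembled transcript grouped with the gene, and the annotated one was listed at 0. Cufflinks' own 95% intervals, which carry the error of counting and assigning fragments but no culture to culture variation, were 39.9 to 43.5 FPKM in control 1 and 26.9 to 30.6 in heat shock 2. UGDH had 2.08 to 3.62 FPKM in the controls and 6.89, 11.8 and 2.14 in heat shock 1, 2 and 3. SETD5-AS1, now THUMPD3-AS1 (chr3:9430537-9439174, minus strand), is head to head with a gene of the SET domain family. It had 14.9, 1.88 and 3.06 FPKM in the controls and 65.1, 28.7 and 1.29 in the heat shock libraries, a log2 difference of 1.53 ± 1.10 (SE), which was 0.53 without heat shock 1 and 2.95 without heat shock 3. The annotated transcript of SETD5-AS1 alone had 4.32, 4.78 and 0.726 FPKM in heat shock 1, 2 and 3. It had 1.08 and 3.06 in control 2 and 3 and none in control 1, a log2 difference of 0.88. PRKAG2-AS1, opposite the gene of a regulatory subunit of AMP-activated kinase, had 18.3, 2.92 and 8.23 FPKM in the controls. It had 14.9, 16.7 and 3.29 in heat shock 1, 2 and 3, with the groups overlapping. Its values in control 1 and 3 came from assembled transcripts, and with annotated transcripts alone the log2 difference was 2.76 in place of 0.26.

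How far the common factor describes an antisense gene went with its level. Among the 15 genes above 0 in all libraries and with a mean of at least 5 FPKM, the ratio of the highest to the lowest library had a median of 5.60 as deposited and 1.76 per common factor, and was narrower per common factor for 13. The factor was computed in part from 1 of them, UGDH-AS1. Over all genes of that level the medians were 5.58 and 2.10. Among the 67 with a mean of 1 to 5 FPKM the order was the other way, 4.74 as deposited and 7.64 per common factor, with 20 narrower, or 29.9%. Over all genes at 1 to 5 FPKM the medians were 5.09 and 4.63, with 44.5% narrower.

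**Figure D2:**
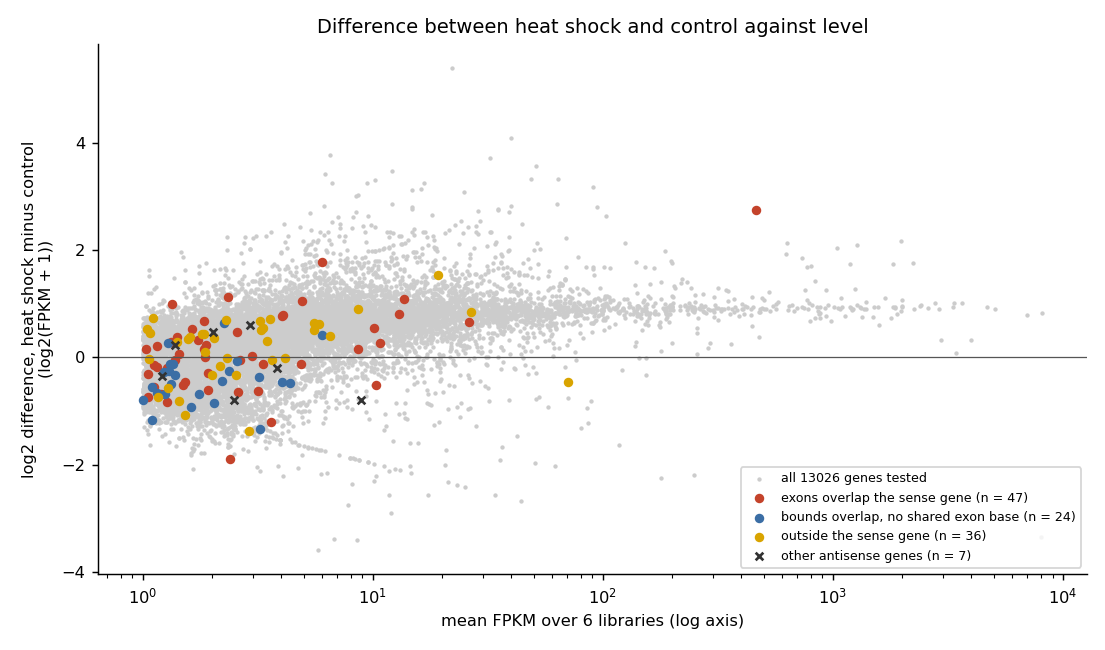
Log2 difference between heat shock and control (3 libraries each, log2(FPKM + 1) as deposited) against the mean FPKM over 6 libraries on a log axis. Gray points are the 13026 genes tested and coloured points are the 114 antisense genes tested, by their position relative to the sense gene. Most antisense genes lie between 1 and 5 FPKM and on both sides of 0, while most of those above 5 FPKM lie above 0.

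To ask which antisense RNAs differed after heat shock, the 114 that averaged at least 1 FPKM were read from a limma fit over all 13026 genes at that level, and the other 86 fell short of it. No antisense gene was called higher, against 2 of all genes (0.0154%), and none lower, against 1 (0.00768%), at an adjusted p below 0.05 and more than 2-fold. The lowest adjusted p of an antisense gene was 0.710 (limma, Benjamini-Hochberg). With p unadjusted, 0 were higher, against 2.06% of all genes, and 4 were lower, against 1.6%. The 4 were GATM-AS1, RNF144A-AS1, WDR86-AS1 and ZMIZ1-AS1, the last named after its values were seen. When heat shock 3 was left out, 16 of 112 antisense genes lay higher and 16 lower at an unadjusted limma p below 0.05 and more than 2-fold. This was 14.3% each way, against 35.2% and 7.53% of 12876 genes, and 0 were called after adjustment. Leaving out control 3 instead gave 4 higher and 3 lower of 104 (3.85% and 2.88%), against 2.51% and 2.01% of 13083 genes. Leaving out heat shock 1 gave 2 and 2 of 116 (1.72% each), against 1.33% and 0.728% of 13058.

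The median log2 difference of the 114 was -0.027, with 54 above 0, beside 0.45 over all genes. Division by the common factor moved both, to -0.48 and -0.21. By level, 16 of the 19 that averaged 5 FPKM or more were above 0 with a median of 0.62, where 92.6% of all genes of that level were above 0 with a median of 0.75. The 3 below 0 were UGDH-AS1, HNRNPU-AS1 and FBXO22-AS1. Of the 95 at 1 to 5 FPKM, 38 were above 0 with a median of -0.12, where 59.9% of all genes of that level were, with a median of 0.19.

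**Figure D3:**
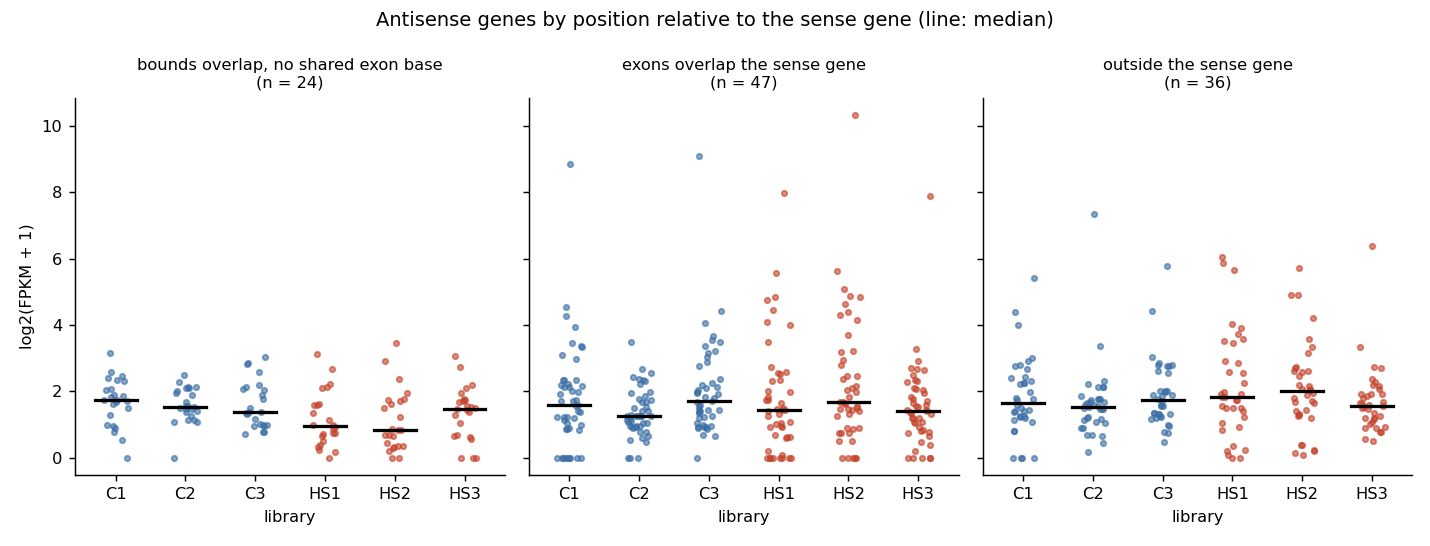
Levels of the tested antisense genes in each library, as log2(FPKM + 1), in 3 panels by position relative to the sense gene. Each point is a gene, blue in control (C) and red in heat shock (HS) libraries, and black lines are medians. In the 24 genes whose bounds overlap those of the sense gene with no exon base in common, the medians of heat shock 1 and 2 lie below those of the other 4 libraries.

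Position relative to the sense gene went with the direction, as level did above, and the 2 were not separated. The 24 tested genes whose bounds overlap those of the sense gene with no exon base in common had a median log2 difference of -0.45, with 3 of 24 above 0 (GNAS-AS1, SERTAD4-AS1 and TMEM44-AS1). Their median level was 2.31, 1.88 and 1.62 FPKM in control 1, 2 and 3 and 0.933, 0.792 and 1.79 in heat shock 1, 2 and 3. Heat shock 1 and 2 were thus low and heat shock 3 was within the range of the controls. The 47 with overlapping exons had a median difference of 0.062, with 25 above 0. The 36 that lie apart from the sense gene had a median of 0.38, with 23 above 0, and a median level of 2.16, 1.91 and 2.34 FPKM in the controls and 2.56, 3.02 and 1.95 in the heat shock libraries. Per common factor the medians were -0.85, -0.46 and -0.20, in the same order. Strandless transcripts over antisense genes were fewest in heat shock 1 and 2, the libraries with low levels of the first group, at 86 and 154. Control 3 had 165, close to heat shock 2, but a median level of 1.62 FPKM in this group against 0.792. A link was not tested. The 52 tested head to head genes and the other 62 had medians of 0.045 and -0.045.

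Because heat shock 3 stood apart, the sides on which heat shock 1 and 2 lay were also counted. Both were above all controls for 35 of the 114 antisense genes, or 30.7%, against 55.7% of all genes. Both were below all controls for 28, or 24.6%, against 14.3% of all genes. Of the 35, 17 had overlapping exons, 16 lay apart from the sense gene and 1 overlapped in bounds alone. Of the 28, 13 overlapped in bounds alone, which is 54.2% of the tested genes of that kind, 7 had overlapping exons and 6 lay apart. The 2 sets also differed in level. The mean FPKM over the 6 libraries, heat shock included, had a median of 2.99 in the 35 and 1.47 in the 28. Heat shock 3 was above all controls in 2 of the 35, within their range in 16 and below all of them in 17. Of the 28, it was below all controls in 7, within their range in 15 and above all of them in 6.

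**Figure D4:**
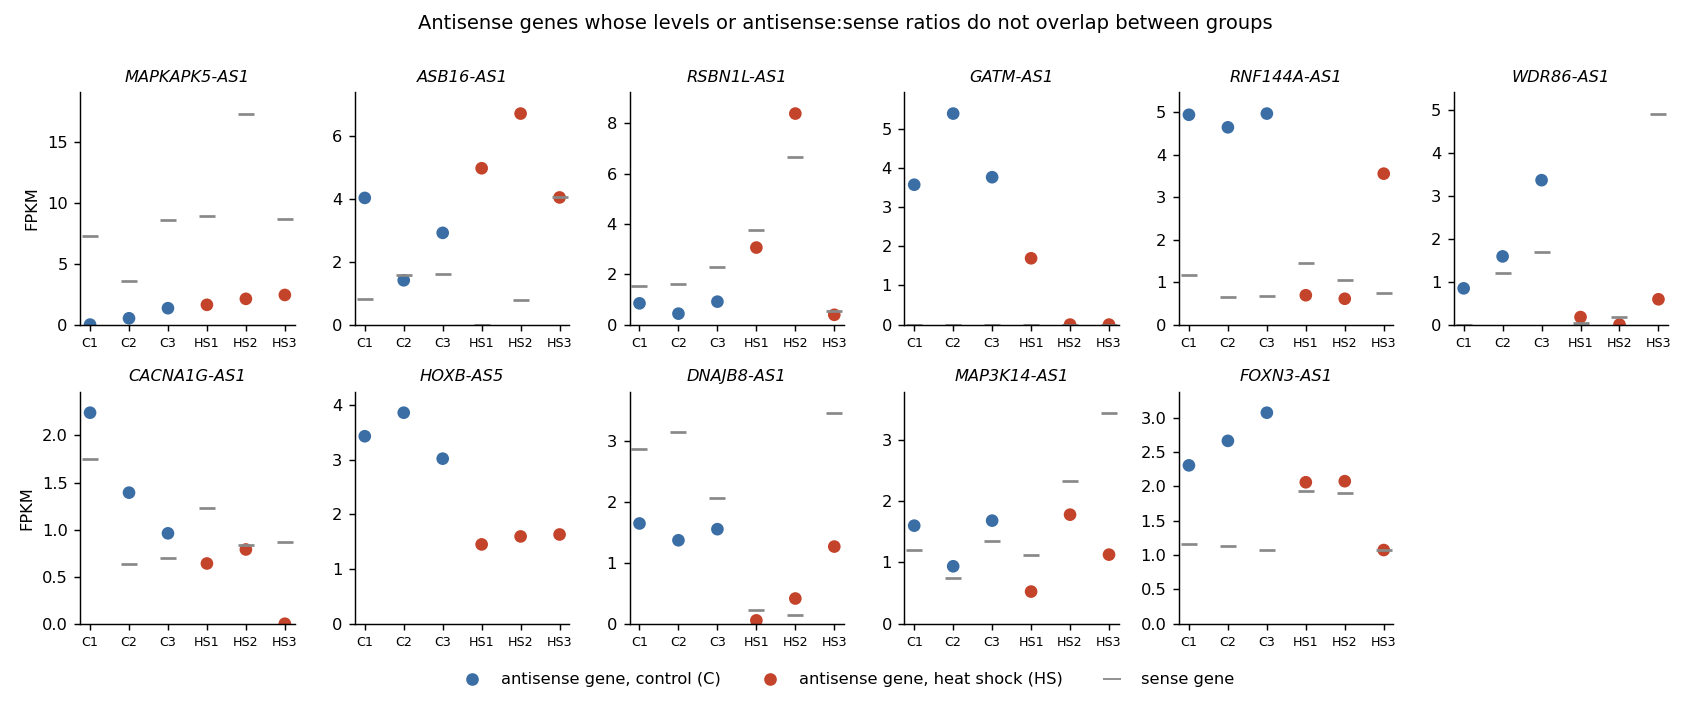
FPKM by library of the 11 antisense genes, among the 114 tested, whose level or antisense:sense ratio did not overlap between 3 control (C, blue circles) and 3 heat shock (HS, red circles) libraries. Gray bars mark the sense gene where one was found. The levels of MAPKAPK5-AS1 and ASB16-AS1 were higher in all heat shock libraries, and those of GATM-AS1, RNF144A-AS1, WDR86-AS1, CACNA1G-AS1, HOXB-AS5, DNAJB8-AS1 and FOXN3-AS1 were lower.

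Of the 114 tested antisense genes, 2 had higher levels in all 3 heat shock libraries than in any control, where 3.71% of all genes did, and 7 had lower levels, where 2.25% of all genes did. Among the 86 below the minimum, named after their values were seen, TRHDE-AS1 was also higher in all 3 and ACTN1-AS1, MAPT-AS1, UBAC2-AS1 and ZNF503-AS1 were lower. The share among all genes below the minimum was not counted, so these names are a listing only. ACTN1-AS1, for example, had 0, 0.208 and 0.522 FPKM after heat shock. MAPKAPK5-AS1 (chr12:112277573-112280706, minus strand), opposite a stress-activated kinase, had 0, 0.517 and 1.35 FPKM in the controls and 1.62, 2.11 and 2.43 in heat shock 1, 2 and 3. Its log2 difference was 0.99 ± 0.49 (SE), and the intervals of Cufflinks for control 3, 0.808 to 1.88, and heat shock 1, 1.10 to 2.15, overlap. ASB16-AS1 had 4.04, 1.41 and 2.92 FPKM in the controls and 4.98, 6.73 and 4.05 in the heat shock libraries, where heat shock 3 and control 1 were nearly equal. Per common factor the values of both genes overlapped between the groups.

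Among the 7 lower genes, GATM-AS1 had the widest gap. It is a single exon of 1424 bases (chr15:45670898-45672321, plus strand) across the start of GATM, an enzyme of creatine synthesis, and was found by position. It had 3.57, 5.39 and 3.76 FPKM in the controls, 1.69 in heat shock 1 and 0 in heat shock 2 and 3, a log2 difference of -1.90 ± 0.51 (SE), and -2.49 per common factor. GATM was listed at 0 in all 6 libraries. RNF144A-AS1, now GRASLND (chr2:7052407-7058813, minus strand), opposite a ubiquitin ligase gene, had 4.94, 4.64 and 4.97 FPKM in the controls and 0.691, 0.608 and 3.55 in heat shock 1, 2 and 3. Heat shock 3 was thus nearer to the controls than to the other heat shock libraries. HOXB-AS5 (chr17:46800542-46802119, plus strand), from the HOXB cluster of body patterning genes, had the smallest spread within groups, with 3.43, 3.86 and 3.02 FPKM in the controls and 1.45, 1.60 and 1.63 in the heat shock libraries. The interval of Cufflinks for its transcript in heat shock 1 was 0.266 to 2.64 FPKM. Per common factor, however, its heat shock 3 value of 3.35 passed that of control 3, 3.16.

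WDR86-AS1, opposite a WD repeat gene, had 0.845, 1.59 and 3.37 FPKM in the controls and 0.175, 0 and 0.590 in heat shock 1, 2 and 3. CACNA1G-AS1, whose bounds overlap those of the gene of a T-type calcium channel, had 2.24, 1.39 and 0.960 FPKM in the controls and 0.640, 0.789 and 0 in the heat shock libraries. Per common factor the groups of GATM-AS1, CACNA1G-AS1 and FOXN3-AS1 stayed apart and those of the other 4 overlapped. The levels of GATM-AS1, CACNA1G-AS1 and FOXN3-AS1 included assembled transcripts grouped with the gene. With annotated transcripts alone, as deposited, the groups of each overlapped. GATM-AS1 was then above 0 only in control 1 (3.57 FPKM) and heat shock 1 (1.69). CACNA1G-AS1 was so only in control 2 (1.39) and heat shock 1 (0.640). FOXN3-AS1 had 0.307 and 0.474 in control 1 and 3, 2.08 in heat shock 2 and 0 elsewhere. The groups of RNF144A-AS1, HOXB-AS5, DNAJB8-AS1, MAPKAPK5-AS1 and ASB16-AS1 also overlapped with annotated transcripts alone. RNF144A-AS1 was then above 0 only in control 1 (0.224) and heat shock 2 (0.608). HOXB-AS5 was so only in control 2 (2.38), heat shock 1 (1.45) and heat shock 2 (1.60). DNAJB8-AS1 and ASB16-AS1 were at 0 in control 2 and heat shock 3, and MAPKAPK5-AS1 in control 1 and heat shock 3. DNAJB8-AS1 overlaps the exons of a testis chaperone gene of the DNAJ family. It had 1.65, 1.37 and 1.55 FPKM in the controls and 0.0548, 0.414 and 1.27 in heat shock 1, 2 and 3, and DNAJB8 itself had 2.87, 3.15 and 2.06 in the controls and 0.231, 0.145 and 3.47 in the heat shock libraries. Both genes were low in heat shock 1 and 2, while in heat shock 3 the antisense gene was below and the sense gene above every control. FOXN3-AS1 (chr14:89883698-89886137, plus strand), whose start interval is printed above, had 2.31, 2.66 and 3.07 FPKM in the controls and 2.06, 2.08 and 1.07 in heat shock 1, 2 and 3. FOXN3, a forkhead repressor, had 1.16, 1.13 and 1.08 FPKM in the controls and 1.94, 1.90 and 1.07 in the heat shock libraries.

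**Figure D5:**
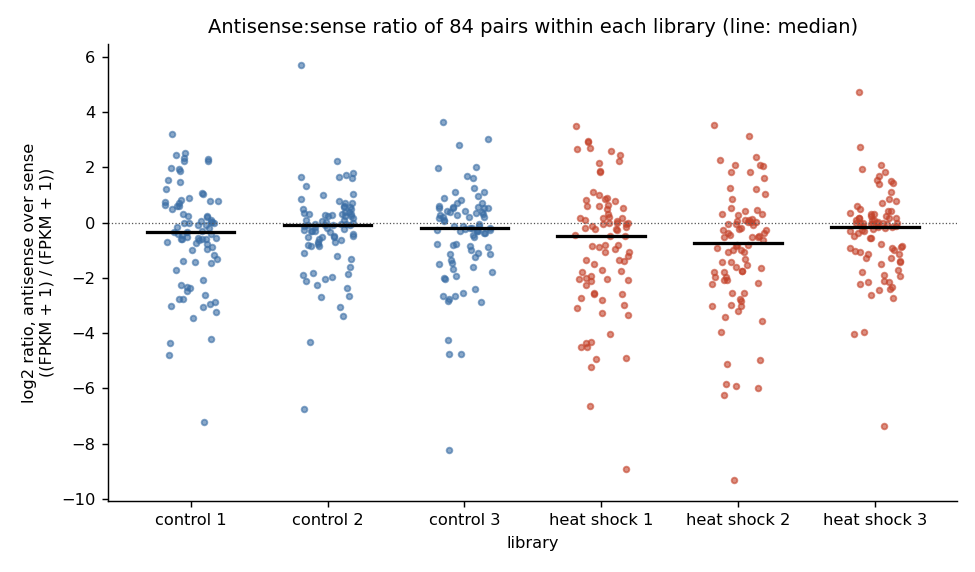
Log2 ratio of antisense to sense, (FPKM + 1) over (FPKM + 1), in each library for the 84 pairs in which both genes had a mean of at least 1 FPKM. Points are pairs, blue in control and red in heat shock libraries, and lines are medians, which run from -0.73 in heat shock 2 to -0.10 in control 2.

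The ratio of antisense to sense was taken within each library, where the common factor acts on both genes but not on the 1 FPKM added to each. For the 84 pairs with both genes at a mean of at least 1 FPKM, the median log2 ratio was -0.34, -0.10 and -0.21 in the controls and -0.49, -0.73 and -0.15 in the heat shock libraries. Heat shock 1 and 2 were below the controls and heat shock 3 lay between control 2 and 3. The ratio was lower after heat shock in 61 pairs and higher in 23, with a median difference of -0.42, or -0.25 per common factor. With annotated transcripts alone 22 pairs reached the minimum, and the median difference was 0.21, with 12 of them higher. The antisense RNA exceeded its sense gene in all 6 libraries in 6 pairs, those of PITPNA-AS1, PRKAG2-AS1, SSTR5-AS1, TTC28-AS1, UGDH-AS1 and ZNF32-AS1, and was below it in all 6 in 24 pairs. SSTR5-AS1, named after its values were seen, lies head to head with a somatostatin receptor gene. The sense genes themselves, 146 of 190 of them tested, were above 0 in 117 cases with a median log2 difference of 0.56, and 0 were called by limma in either direction, with 2 higher and 0 lower before adjustment.

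In 1 pair the ratio was higher in all heat shock libraries than in any control (1.19% of the 84 pairs) and in 4 it was lower (4.76%), each with p = 0.1 by the exact permutation test, two-sided, which is the smallest p that 3 against 3 can give, and 0.84 after adjustment over the pairs. RSBN1L-AS1, now APTR, described as a repressor of the cell cycle inhibitor gene CDKN1A, was the higher one. It had 0.844, 0.434 and 0.910 FPKM in the controls and 3.06, 8.38 and 0.389 in heat shock 1, 2 and 3, against 1.53, 1.60 and 2.27 and then 3.77, 6.65 and 0.526 for RSBN1L. The lower ones were WDR86-AS1, CACNA1G-AS1, MAP3K14-AS1 and FOXN3-AS1, with differences of -1.26, -0.80, -0.80 and -0.74. MAP3K14-AS1, opposite the gene of the kinase NIK, had 1.60, 0.936 and 1.68 FPKM in the controls and 0.524, 1.78 and 1.13 in the heat shock libraries, so its level overlapped between the groups, while MAP3K14 had 1.19, 0.746 and 1.34 and then 1.12, 2.32 and 3.44. For FOXN3-AS1 the log2 ratio was 0.62, 0.78 and 0.97 in the controls and 0.058, 0.085 and -0.0004 in the heat shock libraries. The levels of CACNA1G-AS1 and FOXN3-AS1 in these ratios included the assembled transcripts described above, and that of RSBN1L-AS1 also included assembled transcripts. The annotated transcript of RSBN1L-AS1 had 0.402, 0.434 and 0.910 FPKM in the controls. It had 1.83 and 0.389 in heat shock 1 and 3 and added nothing in heat shock 2.

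A list of 24 antisense RNAs with names in general use held 16 of the 200, of which 10 were tested and 0 called by limma, with 0 at an unadjusted p below 0.05 and more than 2-fold. FGD5-AS1 and OIP5-AS1, both described as microRNA sponges, were above all controls in heat shock 1 and 2 alone. FGD5-AS1 had 5.88, 3.38 and 5.95 FPKM in the controls and 15.3, 17.4 and 3.55 in heat shock 1, 2 and 3, which became 6.22 to 7.77 per common factor over all 6 libraries. OIP5-AS1 had 2.46, 1.78 and 2.68 FPKM in the controls and 6.53, 5.13 and 1.38 in the heat shock libraries. HOXA11-AS, whose start interval is the one with 7 CG dinucleotides, had 4.37, 2.17 and 5.79 FPKM in the controls and 10.8, 7.96 and 2.15 in heat shock 1, 2 and 3. HOXA11 next to it had 2.51, 1.66 and 4.05 and then 6.68, 7.86 and 2.16. GNAS-AS1, from an imprinted locus, had 4.53, 3.41 and 7.12 FPKM in the controls and 5.32, 10.0 and 5.65 in the heat shock libraries, with the groups overlapping.

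MAGI2-AS3 had 0.836, 0.400 and 1.72 FPKM in the controls and 4.84, 1.75 and 0.306 in heat shock 1, 2 and 3. CDKN2B-AS1, known as ANRIL and opposite a cell cycle inhibitor gene, has 19 exons in its longest transcript and had 0.969, 1.92 and 1.01 FPKM in the controls and 3.37, 0 and 0.547 in the heat shock libraries. HIF1A-AS2 overlaps the last part of HIF1A, the hypoxia factor, with 59.5% of its exon bases shared, and was listed at 0, 2.66 and 6.41 FPKM in the controls and at 0, 20.1 and 0 in heat shock 1, 2 and 3. HNRNPU-AS1 had 11.3, 4.30 and 9.29 FPKM in the controls and 24.2, 0 and 4.11 in the heat shock libraries, and where it was listed at 0, in heat shock 2, a transcript joined with HNRNPU had 20.1 FPKM. ZEB1-AS1 and HOXA-AS3 stayed below a mean of 1 FPKM, with 0.177 to 1.13 and 0.423 to 0.971 FPKM over the libraries. MCM3AP-AS1 was above 0 only in control 3 and heat shock 3, at 1.79 and 1.51 FPKM, and PCBP1-AS1 only in heat shock 1 and 2, at 0.160 and 0.227. The 6 tested members of the HOX clusters among the 200 had no common side, and HOXD-AS1 had 1.36, 0.905 and 1.20 FPKM in the controls and 1.94, 2.11 and 0.728 in heat shock 1, 2 and 3.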

How the data were processed

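The transcript levels of 3 control and 3 heat shock libraries were analysed, grouped by their sample labels. Per the labels and the study's methods, RNA was prepared with RiboMinus and the TruSeq RNA kit, and the authors used FastQC 0.10.1, Trimmomatic 0.3.0, TopHat2 (hg19) and Cufflinks 2.0.2 with the hg19 annotation. The deposited assemblies give each transcript an FPKM in each library, which is not normalized further as far as stated. The authors' table gives pooled FPKM by group from Cuffdiff, its version not given in the sources used here, and its fold changes and p-values were not used.

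The FPKM of a gene was the sum over its annotated transcripts and the assembled transcripts grouped with it alone. Assembled transcripts were grouped with 89, 101 and 73 antisense genes in control 1, 2 and 3. In heat shock 1, 2 and 3 they were grouped with 47, 49 and 100. A transcript joined with another gene was counted to none. Of the 200 antisense genes, 120 were matched by the gene name in the assemblies, 63 by RefSeq symbol, 13 by an older symbol and 4 by position. Genes that averaged at least 1 FPKM were fitted with limma 3.58.1 (R 4.3.3) on log2(FPKM + 1), with a trend, and called at an adjusted p (Benjamini-Hochberg over 13026 genes) below 0.05 and over 2-fold. This scale understates the change of low genes. Ratios of pairs were compared by exact permutation tests. The common factor is defined in the text, and the test was tried on simulated data.

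The members, lists and tests were chosen with earlier results of these data known. Genes named were the 8 most abundant, those whose levels (up to 6 in each direction) or ratios (up to 4) did not overlap between groups, a list of 24 known antisense RNAs, and those beside the threshold. Alternatives were a pseudocount of 0.1, other scalings (median-of-ratios, common factor, TPM), other minimums, no trend, annotated transcripts alone, the replicate block, each library left out and, added after the values were seen, joined transcripts counted to each gene. The values used hold no read counts, so depth is known only in relative terms. An overlapping sense transcript can share reads with an antisense gene.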

Additional observations from a re-analysis of the deposited data

How the results depend on the processing

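The count of antisense genes called stayed at 0 in each direction under every alternative run, including each library left out, with limma's lowest adjusted p of a named gene over the alternatives at 0.0699. Unadjusted, 4 were lower. The median log2 difference was -0.33 with median-of-ratios factors, -0.48 with the common factor and -0.43 as TPM. With a library left out it was -0.0995 to 0.16 (0.16 without heat shock 3). Other settings changed the set of genes. At a minimum of 5 FPKM the median was 0.62 over 19 antisense genes, beside 0.75 over all genes. With annotated transcripts alone it was 0.43 over 42 antisense genes, beside 0.69 over all genes. The median ratio difference was -0.13 at a minimum of 5 FPKM (7 pairs), 0.21 with annotated transcripts alone (22 pairs), and -0.51 to -0.33 with a library left out. The causes were not tested.

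Of 243 values of 27 named genes under other settings, 223 kept their sign and 20 did not. With the common factor the log2 difference was -0.008 for EPB41L4A-AS1, -0.19 for PITPNA-AS1, -0.0033 for ZNF32-AS1, -0.53 for PRKAG2-AS1, -0.16 for OIP5-AS1, -0.041 for MAGI2-AS3, -0.24 for HOXA11-AS and -0.30 for GNAS-AS1. As TPM it was -0.027 for PITPNA-AS1, -0.38 for PRKAG2-AS1, -0.027 for OIP5-AS1, -0.10 for HOXA11-AS and -0.18 for GNAS-AS1, and with median-of-ratios factors -0.27 for PRKAG2-AS1, -0.0006 for HOXA11-AS and -0.076 for GNAS-AS1. With annotated transcripts alone it was 1.99 for UGDH-AS1, -1.42 for TTC28-AS1 and 0.0004 for HNRNPU-AS1, and with joined transcripts 0.67 for HNRNPU-AS1. Of 154 values with a library left out, 13 changed sign. The ranges were -0.25 to 4.31 for C17orf76-AS1 (-0.25 without control 2), -0.84 to 0.12 for UGDH-AS1, -0.33 to 0.92 for PRKAG2-AS1, -0.40 to 0.030 for MAP3K14-AS1, -0.014 to 1.07 for MAGI2-AS3, -0.36 to 0.20 for CDKN2B-AS1, -1.59 to 0.61 for HIF1A-AS2 and -1.95 to 0.37 for HNRNPU-AS1.

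Samples with the same replicate number did not deviate together on values as deposited (correlations of 0.027, -0.33 and -0.38, with 1 of 3 controls nearest to its own number). These deviations include the common factor of each library, so they cannot show whether samples of the same number were paired. With the replicate block 0 antisense genes were higher and 0 lower, and over all genes 12 and 5, against 2 and 1 without it.

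Depth limits what can be said of genes near 1 FPKM, and a value of 0 can be a transcript that was joined with a neighbour or assigned to the other strand.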
